A study of Mus musculus with 5 samples.

Results

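J1 mouse embryonic stem cells treated with an siRNA against Tet1 were compared with J1 cells treated with a control siRNA, across all probe sets of an expression array. These are 2 of the 5 arrays of the series, taken by their labels. J1 is an established mouse embryonic stem cell line, and an siRNA is a short double-stranded RNA that directs degradation of its target transcript. Both cultures were grown on mouse embryonic fibroblast feeders and were collected 4 days after transfection, and each group holds 1 array. The other 3 arrays are of E14 cells, another mouse embryonic stem cell line, kept feeder-free, which received a scrambled hairpin or the Tet1 hairpins shRNA3387 or shRNA2863 by lentivirus and were collected after 4 days of puromycin selection. The labels describe no separate cultures and name 1 Tet1 siRNA, so an effect of Tet1 loss and an off-target effect of that reagent cannot be told apart in the J1 pair.

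Tet1 is a dioxygenase that oxidizes 5-methylcytosine in DNA to 5-hydroxymethylcytosine, using iron and 2-oxoglutarate. It is abundant in embryonic stem cells, where it occupies many promoters rich in CG dinucleotides, at genes that are active and at genes held silent by Polycomb proteins. Mouse embryonic stem cells depend on LIF signalling and on the factors Oct4, Sox2 and Nanog to stay undifferentiated.

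Values are log2 signals of probe sets, and a difference is the Tet1 siRNA value minus the control siRNA value on the log2 scale. Each gene was represented by its probe set with the brightest average across the 5 arrays, and 13259 genes were kept because that set lay above the 40th percentile of its array (3.03 with control siRNA, 3.06 with Tet1 siRNA) on at least 1 J1 array. With 1 array a side there is no error and no p-value, so genes are described by the size of the difference and by whether their other probe sets on the same arrays moved alike. "Rose" and "fell" are used for differences of at least 1.5-fold.

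The targeted transcript was lower in all of its detected probe sets. In its brightest set Tet1 read 10.85 on the control array and 8.31 after Tet1 siRNA, 9.97 and 7.13 in the next, and 7.88 and 6.36 in the third, so that it fell by 2.54, 2.84 and 1.52 on the log2 scale. Its 2-oxoglutarate-dependent relative Tet2 also fell in both of its sets, from 8.03 to 6.90 and from 6.45 to 5.67. Tet3 read 2.24 on both arrays, under the filter level. Among the 12 kept genes of the list of Tet proteins and DNA methylation enzymes, the methyl-CpG-binding proteins Mbd2 (6.03 against 6.91) and Mbd1 (6.08 against 6.88) rose. Both sets of Mbd2 were higher, by 0.88 and 0.97, and the median of the list was -0.08.

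The cells carried the marks of embryonic stem cells on both arrays. All 12 stem cell markers were kept, at a median level of 10.89 with control siRNA and 10.30 with Tet1 siRNA, and all 12 differed below 0. Of these, 5 fell by at least 1.5-fold: Esrrb, Nanog, Klf4, Fgf4 and Sall4. Their level summed on the linear scale was 30900 with control siRNA and 23933 with Tet1 siRNA, against 33284 in E14 cells with the scrambled hairpin. Klf4 fell in both sets (0.87 and 0.72 on the log2 scale), but the third set of Esrrb was higher by 0.88 and the third set of Fgf4 higher by 1.12. Fibroblast markers, for the feeder cells, had 16 of 20 members kept, with a median difference of -0.04, 1 member up and 2 down by 1.5-fold. Their summed linear level was 4492 and 5190 in the J1 arrays and 3454 in feeder-free E14 cells with the scrambled hairpin. This sum weighs bright members most, and the brightest, Sparc, read 10.95 and 11.38 in the J1 arrays. By sign, 8 members lay above 0 and 8 below, so the higher sum was not shared across the list. The defining fibroblast genes Dcn, Postn, Pdgfra and Col6a1 lay under the filter, and Col3a1, a fibrillar collagen, read 3.88 and 4.22. The part of feeder cells in the other differences was not tested. In whole cultures, fewer cells of a type and less RNA per cell cannot be told apart.

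Differences between these arrays were small for most genes. The median difference was -0.01, and the middle 95% ran from -0.81 to 0.62. At least 2-fold higher were 64 genes, 0.483% of those kept, and 150 were at least 2-fold lower, 1.13%. At the 1.5-fold threshold used for gene lists, 395 genes (2.98%) rose and 829 (6.25%) fell. Of the 2-fold genes, 53 higher and 139 lower were above the filter on both arrays. Of 5 genes at least 4-fold higher, Plac1, Cited1, Nox4, Dusp18 and Cebpa, the last 2 were under the filter with control siRNA. Genes of middle level, with a mean of 6 to 10, had a median of -0.09, which is the nearer reference for lists of such genes.

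Control probe sets on the arrays did not all lie level. The 9 hybridization controls differed by -0.03 to 0.21. The 5′, middle and 3′ control sets of beta-actin, Actb, were higher by 0.51, 0.40 and 0.19 with Tet1 siRNA, and the 5′ and 3′ sets of Gapdh differed by 0.18 and -0.07, so the difference was larger at the 5′ end in both. The 3′ control set of pyruvate carboxylase fell by 0.85. The control sets of the transferrin receptor rose by 1.09 (3′), 1.81 (middle) and 3.40 (5′), and the 3 gene sets of Tfrc differed by -0.13 (the brightest), 0.81 and 1.77. The part of RNA quality in the gene differences was not tested.

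**Figure D1:**
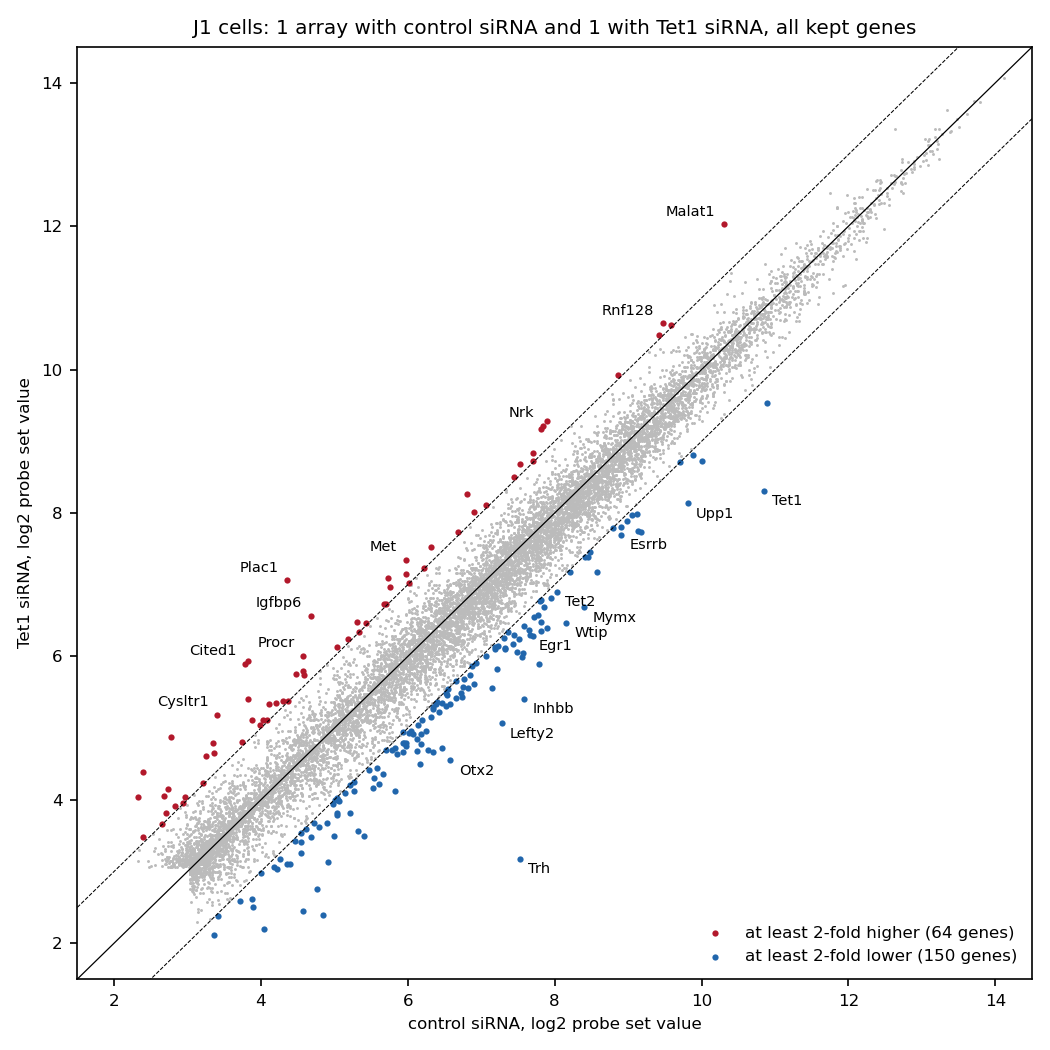
Log2 probe set value with control siRNA (horizontal axis) and with Tet1 siRNA (vertical axis), 1 point for each of the 13259 kept genes. The solid line marks equal values and the dashed lines 2-fold; the 64 red genes are at least 2-fold higher and the 150 blue genes at least 2-fold lower with Tet1 siRNA, with Trh and Tet1 farthest below the line and Plac1 farthest above it.

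Besides Tet1, the largest falls among genes above the filter on both arrays were of Trh, Lefty2, Inhbb and Otx2. Trh encodes the precursor of thyrotropin-releasing hormone, a neuropeptide, and read 7.53 on the control array and 3.18 on the Tet1 siRNA array. The second value lay just above the filter level of 3.06 and under that array's median of 3.49, so the size of the fall rests on signal near background. Lefty2, a secreted antagonist of Nodal, read 7.28 and 5.07, a 4.63-fold difference. Inhbb, the activin beta-B subunit, read 7.58 and 5.41, 4.50-fold lower. Otx2, a homeobox factor of the epiblast and anterior neural plate, read 6.58 and 4.55, 4.08-fold lower. Each of these 4 genes rests on 1 kept probe set.

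Further down this order came membrane proteins and enzymes. Smim13, a small membrane protein, fell by 1.91, the leucine-rich repeat gene Lrrc34 by 1.89 and Rps6ka5, a kinase of histone H3 and CREB, by 1.79. Susd2, a surface protein with a sushi domain, fell by 1.76, Reep6, which shapes the endoplasmic reticulum, by 1.74, and Mymx, a membrane protein of muscle cell fusion, by 1.71. Wtip, a LIM protein of cell junctions, and Ndrg2 fell by 1.69 each. The metabolic enzymes Pck2, mitochondrial phosphoenolpyruvate carboxykinase, and Upp1, uridine phosphorylase, fell by 1.68 and 1.67. Rps6ka5 has 3 kept sets, all below 0, with the smallest difference at -0.31, and the other 9 genes have 1.

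Plac1, Cited1 and Nox4 led the higher genes. Plac1, an X-linked gene of the trophoblast, went from 4.36 with control siRNA to 7.06 with Tet1 siRNA, 6.50-fold higher. Cited1, a transcriptional coactivator, read 3.78 and 5.90, and Nox4, an NADPH oxidase that makes hydrogen peroxide, 3.83 and 5.94. The secreted IGF-binding protein Igfbp6 was higher by 1.89, the leukotriene receptor Cysltr1 by 1.79, the nuclear RNA Malat1 by 1.73 and the small protein Tcim by 1.58. Ociad2 was higher by 1.45, the delta tubulin gene Tubd1 by 1.44, and Procr, the receptor of protein C, by 1.43.

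The promoters of the genes with the largest fall and the largest rise differ in CG content, which is high at many promoters that Tet1 occupies, and are shown for that reason. Both are RefSeq sequences of assembly GRCm38.p6, from 250 bases before to 50 bases after the annotated start, 5′ to 3′ on the gene's strand, with every CG in capitals. Trh lies on the minus strand at chr6:92244601-92244900 and holds 28 CG dinucleotides. Plac1 has 2 annotated starts on the minus strand, at chrX:53240061-53240360 with 3 and at chrX:53114356-53114655 with 6.
Trh: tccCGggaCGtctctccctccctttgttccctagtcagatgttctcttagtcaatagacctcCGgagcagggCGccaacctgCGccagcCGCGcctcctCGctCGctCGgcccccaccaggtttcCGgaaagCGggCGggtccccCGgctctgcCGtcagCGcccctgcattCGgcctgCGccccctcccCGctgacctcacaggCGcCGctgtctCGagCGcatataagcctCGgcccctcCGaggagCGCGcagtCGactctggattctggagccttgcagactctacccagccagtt
Plac1, start farther upstream: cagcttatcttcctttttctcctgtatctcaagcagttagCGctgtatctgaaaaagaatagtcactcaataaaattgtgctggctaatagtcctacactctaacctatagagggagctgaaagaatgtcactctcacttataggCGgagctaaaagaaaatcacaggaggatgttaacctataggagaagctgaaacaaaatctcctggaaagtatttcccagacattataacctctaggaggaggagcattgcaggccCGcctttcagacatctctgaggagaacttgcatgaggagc
Plac1, start nearer the gene: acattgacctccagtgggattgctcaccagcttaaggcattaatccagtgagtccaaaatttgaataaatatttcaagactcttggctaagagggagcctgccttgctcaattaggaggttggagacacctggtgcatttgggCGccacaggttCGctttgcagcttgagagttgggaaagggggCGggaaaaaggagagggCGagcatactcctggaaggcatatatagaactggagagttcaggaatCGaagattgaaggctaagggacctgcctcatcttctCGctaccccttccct

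Over all genes no such contrast was seen. The 57 promoters of genes 2-fold higher and the 142 of genes 2-fold lower both had a median of 17 CG dinucleotides, beside 19 for the 13643 promoters of all kept genes and 7 for all 32851 promoters in the table. RefSeq promoters were found for 47 of the 64 genes higher and 113 of the 150 lower. The core promoter letters TATAAA, searched on both strands, were in 19.3% of the promoters of genes 2-fold higher, in 8.45% of those of genes 2-fold lower and in 8.25% of those of all kept genes. The letters CCAAT were in 33.3%, 32.4% and 37.5%.

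Agreement between probe sets of a gene was limited on this pair of arrays. Of 5825 genes with at least 2 kept probe sets, 40.6% had all sets on the same side of 0, and the 2 brightest sets had opposite signs in 39.9%. The standard deviation of a probe set's difference around its gene was 0.341, as large as the standard deviation of 0.34 over genes. Agreement grew with the size of the difference. Of 554 genes at least 1.5-fold different with another kept set, 29.4% had a second set at least 1.5-fold the same way, and of the 85 genes at least 2-fold different with another kept set the share was 38.8%, or 33 genes.

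These counts differed between the directions. Among 28 genes 2-fold higher with another set, 14 had a second set at least 1.5-fold higher and 6 an opposing set. Among 57 genes 2-fold lower, 19 had a second set at least 1.5-fold lower and 29 an opposing one. The remaining 129 2-fold genes, Trh, Plac1 and Lefty2 among them, have 1 kept set and no such check. In 37 genes every kept set, 2 or more, was at least 1.5-fold higher, and in 41 genes every one was at least 1.5-fold lower.

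Met, Nrk and Dsc2 had the largest minimum difference among the higher genes. Met, the receptor tyrosine kinase for hepatocyte growth factor, read 5.97 in control cells and 7.35 with Tet1 siRNA, and 2.09 and 3.48 in its other set, which was under the filter level of 3.03 with control siRNA. The dimmest sets of Nrk, Nox4 and Gdpd1 were under it there as well, so the support from these sets rests on signal near background. With the filter set on both arrays, 29 in place of 33 of the 2-fold genes had a second set 1.5-fold the same way. Nrk, a kinase of the placental spongiotrophoblast, was higher by 1.38, 1.70 and 2.09 in its 3 sets. Dsc2, a desmosomal cadherin, was higher by 1.36 and 1.44. The keratinocyte protein Sbsn was higher by 1.21 and 1.26, and the membrane ubiquitin ligase Rnf128 by 1.18 and 1.5. Ascl2, a factor of the trophoblast lineage, rose by 1.09 to 1.23 over 3 sets.

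Other genes with support from every set were higher by smaller amounts. The small heat shock protein Cryab rose by 1.15 and 1.04, the TNF receptor adaptor Tradd by 0.98 and 1.73, and Adam10, the protease that releases the outer part of Notch and other surface proteins, by 0.95 and 1.07. Itga8, an integrin alpha chain, read 6.26 and 7.14 in one set and 3.13 and 5.32 in the other. The mitochondrial carrier Slc25a24 rose by 0.93 and 1.48, Pibf1 by 1.15 and 0.89, the glycosyltransferase Galnt7 by at least 0.85 in 3 sets, the G protein subunit Gng12 by 1.17 and 0.82, and Errfi1, a feedback inhibitor of the EGF receptor, by 0.74 and 1.33. Zfp352, Tmem164 and Gdpd1 completed the 20, with smallest differences of 0.79, 0.75 and 0.74.

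**Figure D2:**
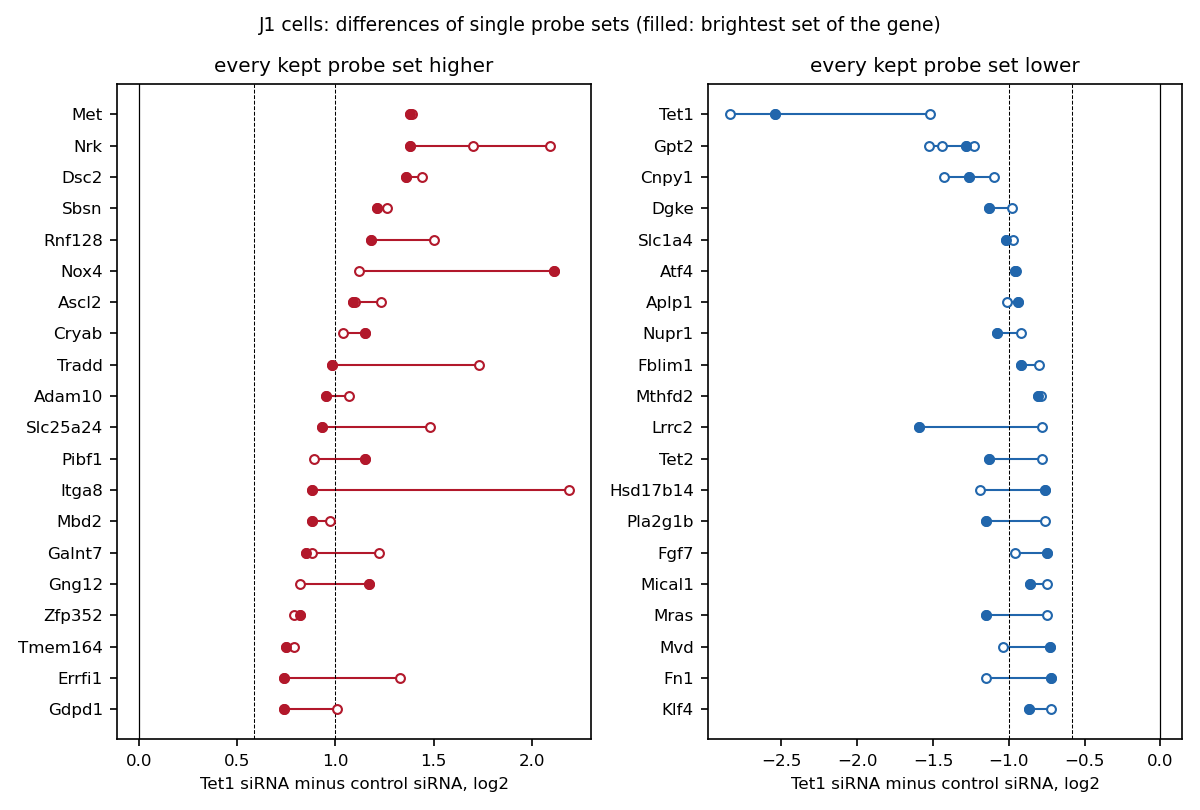
Difference of each kept probe set, Tet1 siRNA minus control siRNA on the log2 scale (horizontal axis), for the 20 genes each way whose smallest difference over sets was largest. Filled points are the set that represents the gene, the brightest on average, open points the other sets, and dashed lines 1.5-fold and 2-fold; Met and Atf4 had sets that differed by 0.01, while the sets of Itga8 and Tet1 were more than 1 unit apart.

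Among genes lower in every set, Tet1 was followed by Gpt2, the mitochondrial alanine aminotransferase, whose 4 sets read 7.65, 7.52, 6.23 and 5.72 with control siRNA and 6.37, 5.99, 4.79 and 4.49 with Tet1 siRNA. Cnpy1 fell by 1.10 to 1.43 over 3 sets and the lipid kinase Dgke by 1.13 and 0.98. Slc1a4, a transporter of serine and alanine, fell by 1.02 and 0.97. The stress response factor Atf4 read 9.85 and 8.89, with a like difference in its other set (9.64 against 8.69). Aplp1, of the amyloid precursor family, fell by 0.94 and 1.01, the small nuclear protein Nupr1 by 1.08 and 0.92, and Fblim1, a filamin-binding protein of adhesions, by 0.92 and 0.80. Mthfd2, a mitochondrial folate enzyme, read 9.23 and 8.42 in one set and 8.44 and 7.65 in the other. Gpt2, Slc1a4, Atf4, Nupr1 and Mthfd2 belong to amino acid supply and its stress response.

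The rest of these 20 were of other kinds. Lrrc2 fell by 1.59 and 0.78, the steroid dehydrogenase Hsd17b14 by 0.76 and 1.19, the secreted phospholipase Pla2g1b by 1.15 and 0.76, and the growth factor Fgf7 by 0.75 and 0.96, with 1 of its sets under the filter after Tet1 siRNA. Mical1, an actin-oxidizing enzyme, fell by 0.86 and 0.75, the Ras-family GTPase Mras by 1.15 and 0.75, and Mvd, an enzyme of cholesterol synthesis, by 0.73 and 1.04. Fibronectin, Fn1, fell by 0.72 and 1.15.

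Some large differences were not shared by the gene's other probe sets. Tcof1, a nucleolar factor of ribosomal RNA synthesis, was lower by 1.43 in its brightest set, and its others read 8.65 against 8.66 and 8.44 against 8.28. Dnajc21, a cochaperone of ribosome assembly, was lower by 1.27 in one set and higher by 0.33 in another. Pfkp, the platelet form of phosphofructokinase, read 9.14 and 7.75, while its other sets differed by 0.16 and -0.33. The zinc exporter Slc30a1 differed by -1.31 and 0.02, and Sesn2, a stress-induced inhibitor of mTORC1, by -1.29 and 0.71. Dock4, an activator of Rac, was higher by 1.41 in 1 of 5 sets, with the others between -0.29 and 0.09. Jam2, a junctional adhesion molecule, was lower in 4 sets by 0.77 to 1.25, and higher by 0.42 in the fifth. For Malat1, 7 sets gave 1.73, 1.70, 2.20, 1.98, 0.99, 0.29 and -0.28.

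Gene lists were read by their counts and medians, without a set test. Of 70 lists, 50 had a median within 0.1 of 0, 7 had a median of -0.2 or lower and 1 a median of 0.2 or higher. More members fell than rose in 43 lists and more rose than fell in 16. Falls also outnumbered rises over all kept genes, at 6.25% against 2.98%, so these list counts alone do not set the lists apart.

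**Figure D3:**
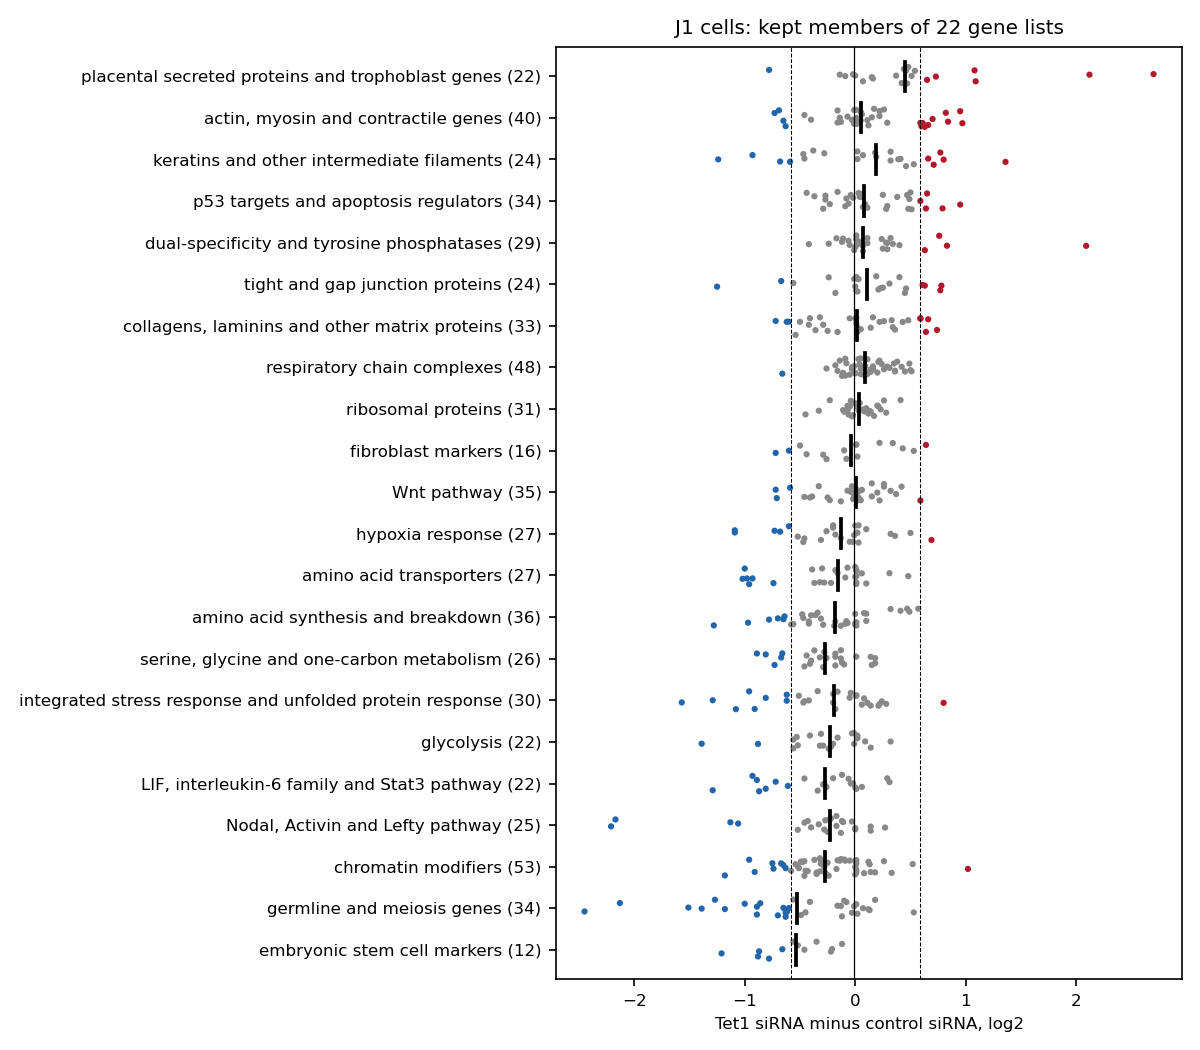
Difference of each kept member, Tet1 siRNA minus control siRNA on the log2 scale (horizontal axis), for 22 of the 70 gene lists, with the number of kept members beside each name. Red points are at least 1.5-fold higher, blue at least 1.5-fold lower, the thick bars are list medians and the thin line is the median of all kept genes, -0.01; placental genes have the highest median, 0.45, and stem cell markers the lowest, -0.54.

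In the Nodal and Activin list 4 genes of secreted proteins fell. Nodal and activins act through type I and type II receptors and Smad2 or Smad3, and are held in check by Lefty proteins. Of 25 kept genes 4 fell and 0 rose, with a median of -0.23: Lefty2, Inhbb, its relative Lefty1 (9.12 against 7.99) and Tgfb1, which encodes transforming growth factor beta 1 (6.39 against 5.33). All 4 fell by at least 2-fold, while Nodal itself and the ligand Gdf3 differed by -0.43 and -0.46. In the BMP list 3 of 21 genes rose, among them the direct targets Id1 (10.17 against 10.90) and Id2 (9.44 against 10.29, with another set at -0.09), and Acvr1, a type I receptor, by 0.63. The inhibitory Smad6 fell by 0.68, and the median of the list was 0.05.

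The LIF pathway list had 7 of 22 genes lower and 0 higher, with a median of -0.27. LIF acts through gp130 and Stat3 to support self-renewal, and its targets in mouse stem cells include Socs3, Junb, Klf4, Klf5, Tfcp2l1, Gbx2, Pim1 and Pim3. Gbx2, a homeobox factor, read 6.90 on the control array and 5.61 on the Tet1 siRNA array. Tfcp2l1 read 8.46 and 7.65, and the coactivator Bcl3 7.07 and 6.18. Pim1, a serine kinase, fell in both sets (by 0.72 and 0.63), whereas Pim3 fell in its brightest set by 0.93 and had another set higher by 0.35. Klf4 and the LIF receptor chain Lifr, lower by 0.61, were the other members that fell. The targets Socs3, Junb and Klf5 differed by -0.20, -0.04 and -0.28, and Stat3 by -0.46.

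FGF signalling genes moved both ways. FGF4 acts through the ERK kinases and primes stem cells for differentiation, and ERK activity induces Egr1, Etv4 and Etv5. Of 29 kept genes 6 fell and 4 rose, with a median of -0.01. Egr1 read 7.67 and 6.30, Fgf15 5.05 and 4.00, and Fgf4 9.10 and 8.32. Higher were Fgf8 (2.34 against 3.30, under the filter with control siRNA), the Ras exchange factor Sos2 by 0.85, and the phosphatases Dusp14 and Dusp5 by 0.83 and 0.63. In the wider list of dual-specificity and tyrosine phosphatases 4 of 29 rose and 0 fell, with Ptpn13 higher by 0.76 and Dusp18 by 2.09 from 2.78, under the filter.

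In the Hedgehog and Hippo list 4 of 24 fell, among them the Hedgehog receptor and target Ptch1 (9.56 against 8.65), Gli1 (7.10 against 6.36) and Gli2, which fell by 0.70 and 2.40 in its 2 sets. The Hippo kinase Lats2 rose by 0.84. In the Notch list Dll1 and Rbpj fell by 0.69 and 0.63 and 0 of 23 rose. Notch4 read 4.77 and 2.76, the latter under the filter, with another set at -0.07. The Notch median was -0.10, or -0.24 with the filter at the 60th percentile. The Wnt list had 1 of 35 higher and 3 lower, with the transcription factor Lef1 at -0.71 and the receptor Fzd5 at -0.72. These Wnt counts were near the shares of all kept genes, of which 2.98% rose and 6.25% fell. In the insulin and IGF list Igfbp6 and Igfbp3 rose (1.89 and 0.67), and Igfbp2 and Eras, a constitutively active Ras of stem cells, fell by 1.07 and 0.93. In the interferon list 2 of 16 fell, Stat2 and Cxcl10, and 0 rose, with a median of -0.09, or -0.22 with that filter.

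Some genes of amino acid supply fell, as did Atf4 and several of its known targets. Atf4 is translated when the kinases of the integrated stress response phosphorylate eIF2, and it induces amino acid transporters, synthetic enzymes, tRNA synthetases and Chac1. In the integrated stress response and unfolded protein response list, 8 of 30 kept genes fell and 1 rose, with a median of -0.19. Chac1, which degrades glutathione, went from 7.56 with control siRNA to 5.99 with Tet1 siRNA. The alanyl-tRNA synthetase Aars read 10.69 and 9.78, and Nupr1 6.01 and 4.93. Ddit3, the stress factor CHOP, was the member that rose, from 5.71 to 6.51, and Atf3 differed by 0.21. This list's median was -0.02 when each gene was taken as the median of its probe sets.

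Of 27 kept amino acid transporters 6 fell and 0 rose, with a median of -0.16, or -0.07 with the median over each gene's probe sets. Slc1a4 fell by 1.02, and Slc7a5, the light chain of the large neutral amino acid transporter, read 9.71 and 8.71. Slc6a15 read 6.33 and 5.35, the glutamine carrier Slc1a5 5.48 and 4.52, and the arginine and lysine carrier Slc7a3 10.31 and 9.38. Slc7a7 fell by 0.74. Other carriers of neutral or basic amino acids did not pass 1.5-fold, among them Slc7a1 at -0.32, Slc38a1 at -0.22, Slc38a2 at -0.16 and Slc7a6 at 0.00. Glucose, lactate and nucleoside transporters had 1 of 21 lower and 0 higher.

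Of 26 kept genes of serine, glycine and one-carbon metabolism 5 fell and 0 rose, with a median of -0.27: the mitochondrial folate enzymes Aldh1l2 (4.60 against 3.71) and Mthfd2, Cbs, which begins the conversion of homocysteine to cysteine (6.11 against 5.38), the serine-forming phosphatase Psph (8.63 against 7.96) and the mitochondrial serine hydroxymethyltransferase Shmt2 (9.43 against 8.77). All 4 sets of Shmt2 were lower, by 0.23 to 0.70. Phgdh and Psat1, which act before Psph in serine synthesis, differed by -0.18 and -0.41. In the list of amino acid synthesis and breakdown 6 of 36 fell and 0 rose, with a median of -0.18. Besides Gpt2 this included Aldh18a1, the first enzyme of proline synthesis, which was lower in all 5 of its sets by 0.33 to 1.24. Breakdown enzymes fell too, among them Bckdha (7.06 against 6.28) and Prodh (6.04 against 5.4), so the members that moved were not all synthetic.

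**Figure D4:**
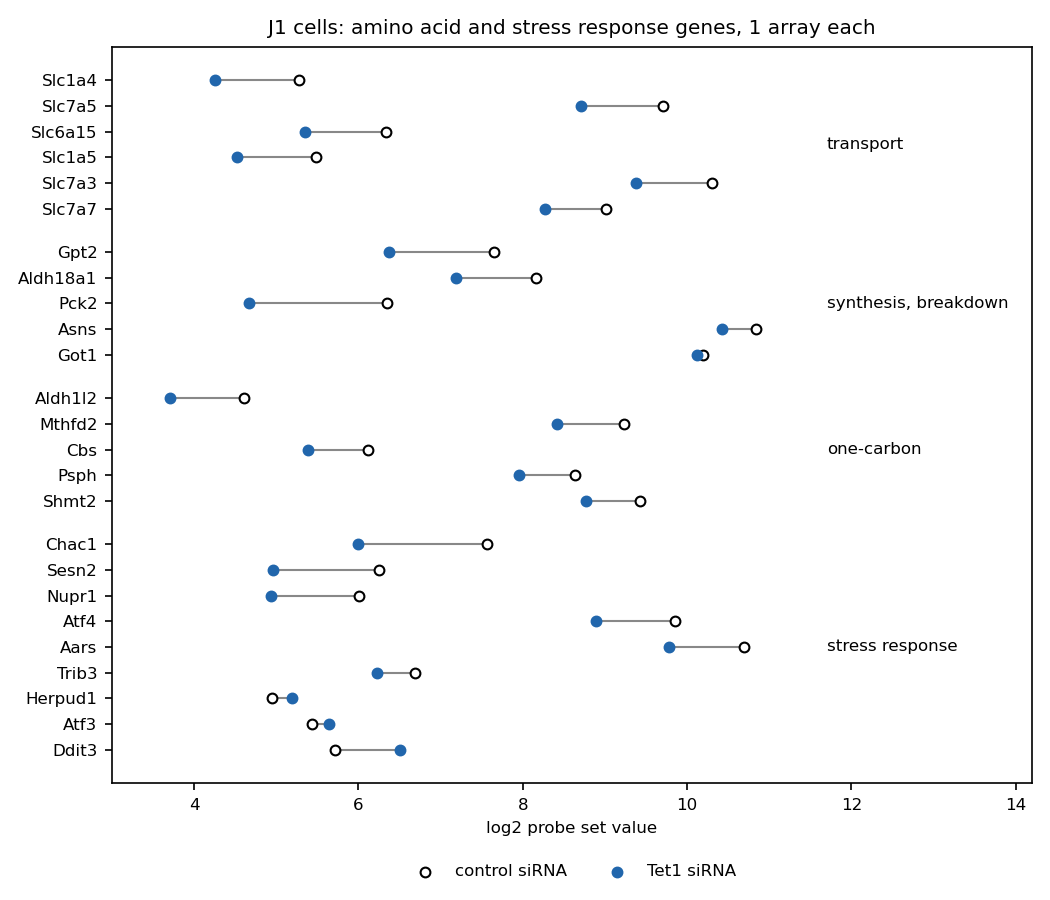
Log2 probe set values (horizontal axis) with control siRNA (open) and Tet1 siRNA (filled) for amino acid transporters, enzymes and stress response genes, 1 array each. The transporters and one-carbon enzymes shown were chosen because they fell, 6 of 27 and 5 of 26 kept. Got1 and Asns lie lower with Tet1 siRNA by less than 1.5-fold, and Ddit3, Atf3 and Herpud1 lie higher.

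Promoters of these genes were searched for the letters TGATGNAA on both strands, the core of the site bound by Atf4 with C/EBP partners. The letters were in 9 of 29 promoters of the kept stress response genes, 31.0%, beside 2.44% of the promoters of all kept genes and 3.97% of all promoters in the table. That list includes known Atf4 targets, so its share does not bear on the Tet1 siRNA pair. The letters were in 4 of 30 promoters of amino acid transporters, 2 of 35 of amino acid synthesis and breakdown genes and 0 of 29 of serine, glycine and one-carbon genes. Among genes past 2-fold they were in 7 of 142 of those lower, 4.93%, and 0 of 57 of those higher. The 4 promoters shown are among these 7, of genes of amino acid metabolism and stress, with the letters in capitals. They are from RefSeq, assembly GRCm38.p6, 5′ to 3′ on the gene's strand: Chac1 at chr2:119350992-119351291 (plus), Pck2 at chr14:55540016-55540315 (plus), Nupr1 at chr7:126625421-126625720 (minus) and Slc1a4 at chr11:20332664-20332963 (minus).
Chac1: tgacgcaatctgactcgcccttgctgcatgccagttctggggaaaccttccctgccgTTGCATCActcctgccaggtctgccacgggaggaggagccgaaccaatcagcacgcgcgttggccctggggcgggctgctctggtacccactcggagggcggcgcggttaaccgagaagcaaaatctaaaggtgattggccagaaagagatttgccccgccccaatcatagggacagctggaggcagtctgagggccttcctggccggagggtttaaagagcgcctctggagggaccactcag
Pck2: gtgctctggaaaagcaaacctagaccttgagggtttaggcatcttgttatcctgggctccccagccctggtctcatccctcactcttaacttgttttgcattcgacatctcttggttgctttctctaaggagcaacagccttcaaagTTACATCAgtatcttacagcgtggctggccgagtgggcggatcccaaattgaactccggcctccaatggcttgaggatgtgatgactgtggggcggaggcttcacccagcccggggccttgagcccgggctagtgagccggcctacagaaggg
Nupr1: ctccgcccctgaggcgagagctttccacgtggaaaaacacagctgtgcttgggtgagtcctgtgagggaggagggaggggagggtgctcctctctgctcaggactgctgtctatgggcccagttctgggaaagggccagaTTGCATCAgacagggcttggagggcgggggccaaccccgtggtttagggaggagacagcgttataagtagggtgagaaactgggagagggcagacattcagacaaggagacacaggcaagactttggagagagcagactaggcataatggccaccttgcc
Slc1a4: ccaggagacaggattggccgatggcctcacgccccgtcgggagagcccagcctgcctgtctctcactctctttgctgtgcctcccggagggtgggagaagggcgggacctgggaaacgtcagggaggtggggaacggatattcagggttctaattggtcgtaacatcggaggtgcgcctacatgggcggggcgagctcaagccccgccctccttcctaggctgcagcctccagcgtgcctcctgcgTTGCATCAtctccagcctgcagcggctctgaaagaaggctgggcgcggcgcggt

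The letters alone did not mark the genes that fell. Among list members that hold them, Chac1, Slc1a4, Nupr1, Aars and Slc7a7 fell, whereas Asns and Trib3 differed by -0.42 and -0.47. The other holders, Vldlr, Got1, Slc7a11, Atf3 and Herpud1, differed by -0.16, -0.07, 0.01, 0.21 and 0.24.

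Most glycolytic genes lay lower and respiratory genes near their control level. In glycolysis 17 of 22 kept genes lay below 0, with a median of -0.23, though 2 fell by 1.5-fold, Pfkp and the lactate dehydrogenase subunit Ldhb. All 4 sets of Ldhb fell, by 0.61 to 0.88. Hk2, hexokinase 2, read 10.41 and 9.88, and the pyruvate dehydrogenase kinase Pdk1 was lower in 4 of 4 sets, by 0.29 to 1.62. Respiratory chain genes had a median of 0.08, with 1 of 48 lower and 0 higher, and ribosomal protein genes a median of 0.03 with 0 of 31 past 1.5-fold in either direction. Pck2 links this group to amino acid metabolism, since it turns mitochondrial oxaloacetate into phosphoenolpyruvate, and pyruvate carboxylase, Pcx, which makes oxaloacetate, read 5.45 and 4.55.

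The hypoxia list had 5 of 27 genes lower and 1 higher, with a median of -0.13. Bnip3, a mitophagy receptor, read 8.98 and 7.89. Epas1, which encodes HIF-2 alpha, was lower by 1.09 in one set and level, at 0.01, in another. Ankrd37, Stc2 and Vegfa fell by 0.73, 0.68 and 0.60. Ndrg1 was the member that rose, in all 4 of its sets, by 0.69 to 2.45. By sign, 9 of the 27 lay above 0 and 17 below, and several were level: Slc2a1, Egln3, Car9 and Slc2a3 differed by 0.10, 0.03, 0.03 and -0.05.

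Among lipid and nucleotide lists the median was lowest for fatty acid synthesis, at -0.17. It was 0.01 with the median over each gene's probe sets. For cholesterol synthesis, glycerolipid enzymes, nucleotide metabolism and beta-oxidation the medians were -0.04, -0.07, -0.08 and 0.01. In fatty acid synthesis 4 of 26 fell and 1 rose, with Acacb at -0.71, Elovl5 and Fads1 at -0.63 each, and the acyl-CoA synthetase Acsl5 higher by 0.69. Cholesterol synthesis and uptake had 2 of 28 lower, Mvd and Pmvk, and 1 higher, Stard4 by 0.62. Among glycerolipid enzymes the secreted phospholipases Pla2g1b and Pla2g10 fell by 1.15 and 0.96 and Pla2g7, which hydrolyses platelet-activating factor, rose from 5.18 to 6.24. In nucleotide metabolism Upp1 read 9.81 and 8.14, and the list of 41 genes had 3 lower and 0 higher, with Prps1 and Dhodh at -0.66 and -0.61. Beta-oxidation had 1 of 31 higher, Hadhb by 0.73, and 0 lower. Over all kept genes 6.25% fell and 2.98% rose, and the cholesterol and nucleotide counts lay near those shares.

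Redox and metal genes were mixed. Of 44 glutathione, thioredoxin and reactive oxygen genes 3 rose (Nox4, Gpx8 and Hmox1) and 4 fell, among them Gpx2 and the transferase Gstm1, which was lower in 4 of 4 sets. Heme oxygenase, Hmox1, read 9.0 and 9.62, and the iron exporter ferroportin, Slc40a1, rose in both of its sets by 0.73 and 0.96. The zinc importer Slc39a14 was lower by 0.90 in its brightest set and higher by 1.83 in another. Among 37 other 2-oxoglutarate-dependent dioxygenases, relatives of Tet1 by chemistry, 3 fell and 0 rose: Tmlhe of carnitine synthesis, Kdm3b and Kdm8, with differences of -1.09, -0.60 and -0.59. The median of this list was -0.06, and its counts were near the shares of all kept genes, of which 6.25% fell and 2.98% rose.

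Adhesion and junction genes moved both ways. In the list of cadherins, protocadherins and nectins 4 of 28 rose: Dsc2, its desmosomal partner Dsg2 (8.78 against 9.66), the poliovirus receptor Pvr (7.06 against 8.11) and Pcdh19. The desmosomal Dsc3 differed by 0.07. Dsg2 rose by 0.71 to 1.5 in 4 of its 5 kept sets. In the same list 4 fell, with the leukocyte adhesion ligand Icam1 at -0.90. Of 24 tight and gap junction genes 4 rose, the claudins Cldn4 (9.65 against 10.26) and Cldn6 (8.79 against 9.57), Marveld2 of tricellular junctions and the channel gene Panx1, and 2 fell, Jam2 and Gjc1, with a median of 0.11. The claudins Cldn1, Cldn3, Cldn5 and Cldn23 differed by -0.01 to 0.02. Of 16 integrins 1 rose, Itga8, and 0 fell.

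Receptors and channels were mostly level. Met was the 1 of 25 receptor tyrosine kinases past 1.5-fold. Among 34 kept G protein-coupled receptors 2 rose, Cysltr1 and the adhesion receptor Adgrl2 (8.88 against 9.59), and 3 fell, with the lysophosphatidic acid receptor Lpar4 at -0.97. Of 14 potassium channels 1 fell, Kcnk5 (6.88 against 5.86). Of 35 other channels Grik3 and Glra1 rose by 0.88 and 0.84, and Clcn2 and Cacna1a fell by 0.95 and 0.93. Among GPI-anchored proteins and proteoglycans Nt5e and Prss8 rose by 0.71 and 0.74, and glypican-3, Gpc3, and alkaline phosphatase, Alpl, a marker of undifferentiated cells, fell by 0.88 and 0.70. The efflux pumps Abcb1b and Abcb4 rose by 0.73 and 0.83, from 6.96 and 4.4, among 20 such transporters, and 0 fell. The list as a whole lay lower, with a median of -0.12 and 12 of 20 below 0. Abcb1a and Abca1, at -0.57 each, were just short of 1.5-fold.

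Of 40 actin, myosin, annexin and S100 genes, 10 rose and 4 fell, against a background of 2.98% and 6.25%, with a median of 0.05. S100a6 read 9.28 and 10.25, its relative S100a10 10.39 and 11.23, and the partner of S100a10, annexin Anxa2, 10.35 and 11.05. Anxa1 read 10.40 and 11.35. Another annexin, Anxa8, fell in both sets by 0.73 and 0.66, and the S100 gene S100a4 and the tropomyosin Tpm4 differed by 0.01 and 0.26. The tropomyosin Tpm2 read 9.03 and 9.85, with 2 of its 4 kept sets past 1.5-fold. Among keratins and other intermediate filaments 5 of 24 rose and 4 fell: Krt18, a keratin of simple epithelia and trophoblast, read 11.75 and 12.46, and the neurofilament Nefl 7.81 and 9.17, while Krt17 read 5.03 and 3.79. In the matrix list 5 of 33 rose and 3 fell, with the basement membrane chains Col4a1 and Col4a2 higher by 0.59 and 0.66 and laminin Lama5 and tenascin Tnc lower by 0.62 and 0.60. Fibroblasts express several of these genes too. Their own marker list had a median of -0.04, with 8 members above 0 and 8 below. Its summed level, weighted to bright members such as Sparc, was 4492 with control siRNA and 5190 with Tet1 siRNA. The vimentin gene Vim was higher by 0.46 to 0.53 in 3 sets. The part of fibroblasts in the cytoskeletal differences was not tested.

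The genes of the p53 response and cell death that passed 1.5-fold were all higher. In the p53 and apoptosis list 5 of 34 rose and 0 fell, with a median of 0.08: the protease Casp8 (5.19 against 6.14), Phlda1 (8.80 against 9.59), the imprinted Phlda2 (9.85 against 10.50), Gadd45g and Perp. Over all kept genes 2.98% rose and 6.25% fell. This list's median was 0.28 when each gene was taken as the median of its probe sets. Other p53 targets did not pass 1.5-fold and went both ways. Mdm2, Ccng1 and Cdkn1a differed by 0.49, 0.38 and 0.09, and Bbc3, Gadd45a and Pmaip1 by -0.23, -0.29 and -0.44. In the list of cell cycle and replication genes 6 of 46 fell and 1 rose, the cyclin Ccne2 by 0.66. Mycn, abundant in stem cells, read 11.06 and 10.35, and the helicase subunit Mcm3 was lower by 0.90 in its brightest set with another set at 0.09.

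Of 22 kept placental and trophoblast genes 17 lay above 0, 6 rose and 1 fell, with a median of 0.45. Besides Plac1, Cited1 and Ascl2, the factor Hand1 read 4.03 and 5.11, and the imprinted genes Peg10 and Phlda2 rose by 0.73 and 0.65. Without the filter on low values the median of this list was 0.10. Of 30 epiblast and neural genes 8 fell and 3 rose: Foxd3, a factor of the epiblast, read 4.98 and 3.94, the zinc finger gene Zic5 7.13 and 6.16, and Neurod1 6.50 and 5.54, while the intermediate filament Nes rose by 0.80. The median of this list was -0.05, or -0.40 with the filter at the 60th percentile. In the mesoderm list Gata2 rose by 0.81, with another set at 0.01, and in the endoderm list Spink1 read 4.04 and 2.20, under the filter with Tet1 siRNA. The mesoderm and endoderm medians were 0.02 each.

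Many germline genes fell. Of 34 kept germline and meiosis genes 16 fell and 0 rose, with a median of -0.52. Stag3 and Smc1b, subunits of meiotic cohesin, read 7.22 and 5.83, and 4.85 and 2.40. Tex11, an X-linked meiosis gene, read 5.00 and 3.49, the sex-determining factor Dmrt1 7.52 and 6.25, and Prdm14, a regulator of naive pluripotency and primordial germ cells, 5.97 and 4.79. Tsx, an X-linked gene of testis and stem cells, read 4.58 and 2.45. Smc1b and Tsx were under the filter with Tet1 siRNA. Without the filter the median of this list was -0.15, since members at background lie near 0.

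In the chromatin list 8 of 53 genes fell and 1 rose, with a median of -0.27, or -0.10 with the median over each gene's probe sets. The deacetylase Hdac4 fell by 0.96 in its brightest set and 0.47 in another, the histone methyltransferase Kmt2c by 0.91 and the remodeller Chd7 by 0.75, with another set of Chd7 at 0.28. Hmga2, an architectural protein of stem cells, was the member that rose, from 7.71 to 8.73, and 3 of its 4 sets rose by 1.02 to 1.72. Long noncoding RNAs had 7 of 22 lower and 1 higher, Malat1, where 6.25% and 2.98% of all kept genes were. The median of that list was -0.16, or 0.02 with the median over each gene's probe sets. Tug1 was lower by 0.95 with another set at 0.24, Neat1 by 0.83, and the imprinted Meg3 by 0.61 in its brightest set, with 10 sets from -0.88 to 0.26.

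Some of the J1 differences were also seen in E14 cells, which share no array with the J1 pair, while both hairpins share the scrambled control. Of the 64 genes 2-fold higher in J1 cells, 10 (15.6%) were at least 1.5-fold higher with shRNA3387 and 11 (17.2%) with shRNA2863, where 5.37% and 3.63% of all kept genes were. Of the 150 genes 2-fold lower, 20 (13.3%) were at least 1.5-fold lower with shRNA3387 and 35 (23.3%) with shRNA2863, where 3.05% of all kept genes were with either hairpin. At least 1.5-fold the opposite way were 4 and 1 of the 64, and 10 and 6 of the 150, with shRNA3387 and shRNA2863. By sign alone, 46.9% of the 64 lay above 0 with each hairpin, where 42.3% and 42.1% of all kept genes did, and 66.0% and 74.7% of the 150 lay below 0, where 56.4% and 54.8% did. The count 1.5-fold the same way by the mean of both hairpins was 28 of 214, against 46 with shRNA2863 alone. In 18 genes, the targeted Tet1 included, the direction held at 1.5-fold with each hairpin. The share of all kept genes past 1.5-fold with both hairpins was not counted, so the 18 have no background beside them. Higher among the 18 were Mex3b, Mbnl3, Bin1, Hmga2 and Rnf128, and lower were Tet1, Gbx2, Mras, Ltb, Reep6, Tcl1, Lrrc2 and others.

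Most genes at the top of the J1 order were not among the 18. Plac1 differed by -0.39 and 0.50 with shRNA3387 and shRNA2863, Lefty2 by -0.29 and -0.49, Otx2 by 0.18 and -0.15, Nox4 by -0.17 and 0.11, and Malat1 by 0.19 and -0.42. Trh differed by -0.89 and -0.44, in the direction of J1 and by a smaller size. The difference between systems was not tested here, since each holds 1 array a condition and differs in line, feeders and reagent together.

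**Figure D5:**
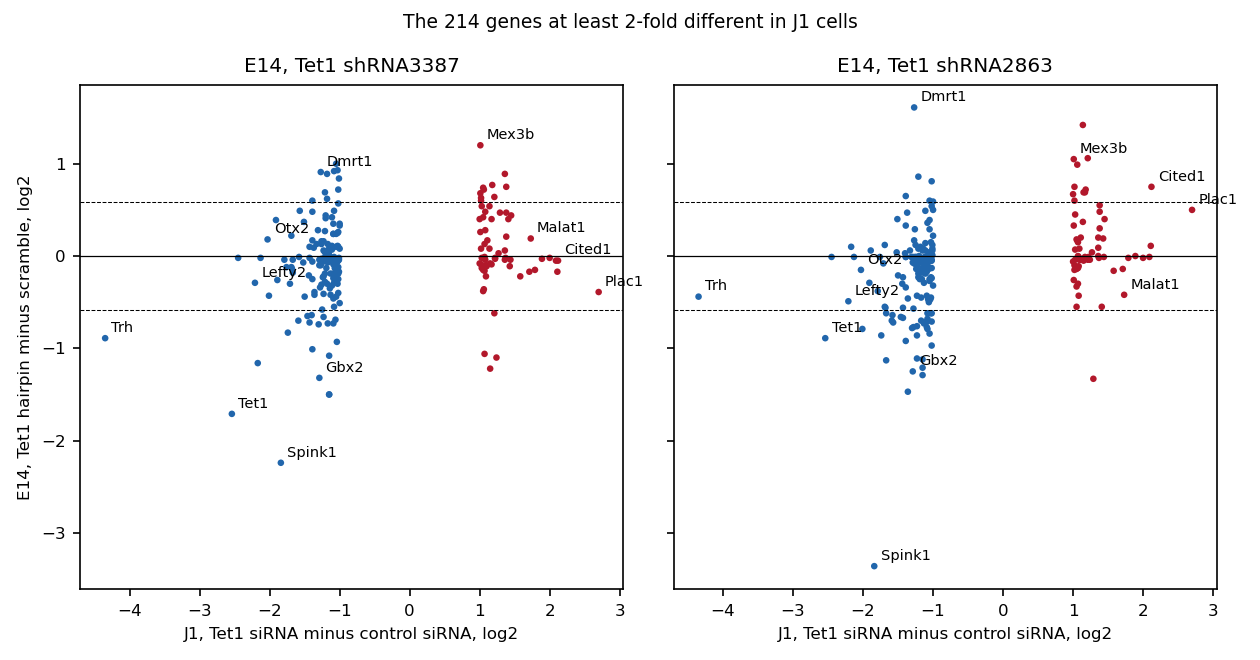
Difference in J1 cells, Tet1 siRNA minus control siRNA (horizontal axis), against the difference in E14 cells, Tet1 hairpin minus scramble (vertical axis), both on the log2 scale, for the 214 genes at least 2-fold different in J1 cells, with shRNA3387 on the left and shRNA2863 on the right. Dashed lines mark 1.5-fold in E14 cells; most points lie between them, Spink1, Tet1 and Gbx2 lie below them and Mex3b above.

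The lists that moved in J1 cells had other values in E14 cells. The germline list, with 16 of 34 genes lower and 0 higher in J1, had 1 lower and 4 higher with shRNA3387 and 0 lower and 7 higher with shRNA2863. The stress response list had 0 lower and 2 higher with shRNA3387, and 4 lower and 1 higher with shRNA2863, and the amino acid transporters 1 each way with either hairpin. The contractile list had 10 lower and 3 higher with shRNA3387, and 3 and 2 with shRNA2863. Placental genes had 3 lower and 2 higher with shRNA3387, and 1 lower and 4 higher with shRNA2863. Stem cell markers had medians of -0.11 and -0.09, beside -0.54 in J1 cells.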

How the data were processed

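RNA of J1 and E14 mouse embryonic stem cells was measured on 5 single-channel Affymetrix arrays, 1 per group, grouped by their labels. The authors deposited probe set values that were taken as log2, since they lie within the range of log2 probe set summaries; how they were summarized and normalized is not given in the sources used here. RNA was labelled with a one-cycle kit per the labels' protocols. The number of arrays limits the precision, and whether the cultures were separate is not stated.

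The array has 45101 probe sets, including 64 controls. A single symbol is listed for 34958, several for 932 and none for 9211. Genes were named from probe sets with a single symbol in the platform annotation, and 34754 of these matched RefSeq (GRCm38.p6) by Entrez identifier, with 0 symbols altered. Each of 18193 genes was represented by its set of highest average signal on all 5 arrays, and 13259 genes were kept above the 40th percentile of an array on at least 1 J1 array. A probe set of a gene was counted as another kept set by the same filter. No test was made, since each group holds 1 array. Differences were called at 2-fold, and at 1.5-fold for lists, with Python 3.11.15, pandas 2.3.3 and numpy 2.4.6. The script was tested on simulated data. Of 2524 memberships in 70 gene lists, 1963 were kept.

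The lists and the rule for naming genes were chosen with earlier results of these data known. Named were Tet1 to Tet3, in each direction the 20 genes whose probe sets, all of like sign, had the largest minimum difference, the 15 each way with the largest difference among genes above the filter on both J1 arrays, up to 6 members per list by size and the 8 largest with an opposing set. Genes named besides these, such as Ddit3, Asns, Etv4, Lifr, Socs3, Slc7a1 and Tfrc, were chosen after their values were seen. Alternatives were quantile normalization, median centring, other filters, the median over probe sets, the brightest set on the J1 arrays and a 1.5-fold threshold.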

Additional observations from a re-analysis of the deposited data

Results flagged for a closer look

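Dmrt1 and Peg10 moved one way in J1 cells and the other way with both Tet1 hairpins in E14 cells, by at least 1.5-fold each time. Dmrt1 differed by -1.27 in J1 cells and by 0.91 and 1.61 with shRNA3387 and shRNA2863. The imprinted Peg10 differed by 0.73 in J1 cells and by -0.84 and -0.83. Both genes have 1 kept probe set, the hairpins share 1 scrambled control array, and the difference between the systems was not tested.

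The array's control probe sets for the transferrin receptor, which no gene comparison uses, were higher with Tet1 siRNA by 1.09 in the 3′ set, 1.81 in the middle set and 3.40 in the 5′ set. They read 7.05, 5.03 and 4.17 with control siRNA and 8.14, 6.84 and 7.57 with Tet1 siRNA, and between 2.94 and 4.33 on the E14 arrays. The gene sets of Tfrc differed by -0.13, 0.81 and 1.77.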

How the results depend on the processing

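No paired analysis was possible because each group holds 1 array, and for the same reason no replicate could be left out. The 64 genes higher and 150 lower at 2-fold became 395 and 829 with a 1.5-fold threshold. The 33 genes 2-fold different with a second set past 1.5-fold became 57 when the median over probe sets stood for a gene. The second set is then part of the gene's own value, so that rise is partly built in. The same choice moved the 2-fold counts to 77 higher and 110 lower, of which 47 and 104 were the same genes. Scaling moved the median of all genes by at most 0.04, with 67 and 137 genes after quantile normalization and 52 and 174 after median centring. The genes 1.5-fold the same way in E14 cells, 28 by the mean of both hairpins, were 46 with shRNA2863 alone. With the brightest set on the J1 arrays, 5 named genes changed sign: Dnajc21 to 0.33, Mycl to 0.02, Sesn2 to 0.71, Slc30a1 to 0.02 and Tcof1 to 0.01, since another probe set then represents them. Of 438 named genes, 66 moved with the median over probe sets and 372 kept their value within the spread of probe sets. Among list medians, 16 of 70 moved with the filter at the 60th percentile and 11 with the median over probe sets, where stem cell markers had -0.38, amino acid transporters -0.07, p53 and apoptosis genes 0.28 and long noncoding RNAs 0.02. With the 60th percentile filter amino acid transporters had -0.29 and tight and gap junction genes 0.22. Without a filter germline genes had -0.15, placental genes 0.10, amino acid enzymes -0.11 and serine and folate genes -0.18. The ribosomal protein median was -0.01 after median centring. Genes under the filter on 1 array, 11 higher and 11 lower, have folds that rest on signal near background.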

Other observations

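Neighbouring ubiquitin, antigen and nuclear receptor genes gave a few further values in J1 cells. Of 36 proteasome and ubiquitin ligase genes 2 fell and 1 rose, with Trim2 lower by 1.17 in the brightest of 6 sets that all lay below 0. Among antigen presentation genes the immunoproteasome subunit Psmb10 read 7.91 on the control array and 6.95 after Tet1 siRNA, and 2 of 14 fell. Of 22 nuclear receptors and coregulators 5 fell and 1 rose: the orphan receptor Nr0b1 read 8.86 and 8.01, and Nr5a2 was lower by 0.86 with another set at 0.07. The cytokine Ltb read 5.27 and 4.12, and it differed by -1.08 and -1.12 with the E14 hairpins.

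Imprinted genes moved both ways, with 3 of 33 higher (Ascl2, Peg10 and Phlda2) and 5 lower, and a median of -0.04. Among those lower, Zdbf2 read 8.15 and 7.51, and Grb10 was lower by 0.62 in its brightest set and higher by 0.85 and 0.51 in its others. Matrix proteases rose and fell in equal number, 4 each of 42, with Htra1 higher by 0.72 and Mmp11 lower by 0.86.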
